A study of Mus musculus with 51 samples.

Results

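The comparison set 6 arrays carrying a spike of 0.5 pmol per gene against 6 arrays with no spike (0 pmol), 12 of the 51 arrays of the series. The members were chosen by the amount in the sample titles, which also number the replicates 1 to 6 at each amount. By its title, the series evaluated ways of picking out changed genes from arrays with spiked RNA. At 0.5 pmol, channel 1 of each array held RNA of the mouse hybridoma CRL1606 with 100 genes added, and channel 2 held the same RNA with another 100 genes added, each gene at 0.5 pmol. At 0 pmol, both channels held the hybridoma RNA with no added amount. The titles call every array a self-hybridisation, so the hybridoma RNA was shared by all 12 arrays and by both channels. CRL1606 is 1 line, a fusion of BALB/c spleen cells and the BALB/c myeloma P3-X63-Ag8, which secretes an antibody against fibronectin. It was grown in suspension in serum-free medium. The labels do not say whether replicates came from separate cultures, RNA preparations or spike mixtures, so the scatter between them may be technical. The p-values reflect only such scatter, pooled over all 51 arrays of the series and not over these 12 alone. Which genes were spiked is not stated in the labels.

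A 2-colour array compares a pair of labelled RNA pools on the same spots, and its value is the log ratio of the channels. Where the pools are identical the ratio of a gene lies near its array's middle value. A gene added to one pool pulls its spot to one side, and a gene added to the other pool pulls it to the opposite side. A spike-in array therefore tests the measurement and not the state of the cells. Which channel was the numerator is not stated, so a positive or a negative difference cannot be tied to a channel. All values below are log2 ratios after the median of each array was subtracted, and each feature is a probe averaged over its pair of printed spots. A feature was called where the limma test of the difference, 0.5 minus 0 pmol, had a Benjamini-Hochberg adjusted p under 0.05.

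The arrays of each amount fell into replicate groups of unlike correlation. These correlations left out the features with the 150 highest and the 150 lowest means at 2 pmol. Replicates 4 to 6 of 0.5 pmol correlated with each other at r from 0.81 to 0.92, and replicates 1 to 3 at 0.29 to 0.51. Arrays of one replicate group correlated with those of the other at 0.28 to 0.49. Replicates 4 to 6 of 0 pmol correlated with each other at 0.72 to 0.75, replicates 1 to 3 at 0.30 to 0.44, and arrays of one replicate group with those of the other at 0.18 to 0.31. Between 0.5 and 0 pmol arrays the values ran from -0.20 to 0.34. All 51 arrays were clustered over the same features, after the data had been seen. No 0.5 pmol array fell into a set with a 0 pmol array, whether 8 or 6 sets were taken. Replicates 1 to 3 and 4 to 6 of 0.5 pmol lay in different sets both times, while all 6 arrays at 0 pmol lay in 1 set when 6 sets were taken. Array set and amount cannot be told apart in this comparison, and a fit that includes the sets reaches it only through other amounts. The deposited array medians ran from -1.40 to 0.95 at 0.5 pmol and from -3.11 to -1.08 at 0 pmol. Missing spots made up 0.25% to 1.86% of an array at 0.5 pmol and 0.90% to 5.39% at 0 pmol. Across features, the spots of a pair correlated at r from 0.81 to 0.98 at 0.5 pmol and from 0.62 to 0.80 at 0 pmol. The lowest value at 0.5 pmol was that of replicate 3, and the others were 0.94 or higher. Gapdh, a glycolytic enzyme printed as a control in all 48 blocks, had medians of -1.29, -0.43 and -0.18 on replicates 1 to 3 and 3.21, 1.95 and 0.09 on replicates 4 to 6 of 0.5 pmol. At 0 pmol its medians were 0.54, 0.62 and 0.91 on replicates 1 to 3 and -1.31, -1.15 and -1.22 on replicates 4 to 6. Within each amount, the medians of replicates 1 to 3 did not overlap those of replicates 4 to 6.

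Between 0.5 and 0 pmol, 1987 of 7920 features were called (25.1%). Of these, 1115 differences were positive (14.1% of all features) and 872 were negative (11.0%). The median absolute difference was 1.08 over the called features and 0.43 over all features, and the median standard error was 0.28. Differences of at least 1 log2 unit were reached by 668 positive and 472 negative calls. Differences of at least 2 log2 units, a 4-fold ratio, were reached by 153 positive and 176 negative calls, and 34 calls each way reached at least 4. The 0.5 pmol arrays all lay above or all lay below the 0 pmol arrays at 1155 features (14.6%). With the 8 array sets as a covariate, 161 features were called (2.04%), with a median standard error of 0.60. Without centring, every feature carried the difference of the array medians, which shifted the median difference over all features to 2.05 and gave 7171 positive and 60 negative calls.

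The features given as markers of the spike were Galnt13, Zfp330 and Fem1c. Galnt13, which attaches the first sugar of mucin-type O-glycans, had log2 ratios of 5.12, 6.81 and 8.26 (lowest, median and highest) at 0.5 pmol and of -1.21, -0.38 and -0.11 on the 5 measured arrays at 0 pmol. Its difference was 7.38 with a standard error of 0.54 (adjusted p = 1.94e-13), and the arrays of the 2 amounts did not overlap. Within 0.5 pmol, replicates 1 to 3 averaged 8.02 and replicates 4 to 6 averaged 5.50, so the spiked arrays split by replicate group. With the 8 array sets as a covariate the difference was 5.22 (adjusted p = 0.00323). A second probe with the same sequence accession, at spot 11444, did not carry the signal. Its log2 ratio was -0.04 ± 0.39 at 0.5 pmol and -0.15 ± 0.62 at 0 pmol (SD, n = 6 each), with a difference of 0.11 (adjusted p = 0.868).

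Zfp330, a zinc finger protein, had log2 ratios of -6.55, -6.44 and -3.90 (lowest, median and highest) at 0.5 pmol, and averaged 0.19 ± 0.11 (SD, n = 6) at 0 pmol. The difference was -6.13 with a standard error of 0.60 (adjusted p = 1.38e-10), and -6.06 with the 8 array sets as a covariate (adjusted p = 0.0111). The value of -3.90 came from replicate 4, and the other 5 spiked arrays lay at -5.82 or below. Fem1c, a substrate-recognition subunit of a cullin ubiquitin ligase, was printed as separate probes in blocks 8 and 45. The probe at spot 2642 ran from -7.13 to -4.59, with a median of -6.33, at 0.5 pmol and from -0.43 to 0.25 at 0 pmol. The probe at spot 15721 ran from -7.67 to -4.48, with a median of -6.16, at 0.5 pmol and from -0.61 to -0.01 at 0 pmol. Both averaged -6.15 at 0.5 pmol, with differences of -6.12 (adjusted p = 4.58e-08) and -5.91 (adjusted p = 5.26e-10). Replicate 4 was the 0.5 pmol array nearest to 0 for both probes, as it was for Zfp330. At 0.5 pmol, Zfp330 averaged -6.46 on replicates 1 to 3 and -5.42 on replicates 4 to 6. The Fem1c probes averaged -6.71 and -5.59 on these replicate groups at spot 2642, and -7.28 and -5.02 at spot 15721. With the 8 array sets as a covariate the differences were -6.35 and -3.13 and neither was called (adjusted p = 0.0552 and 0.129).

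**Figure D1:**
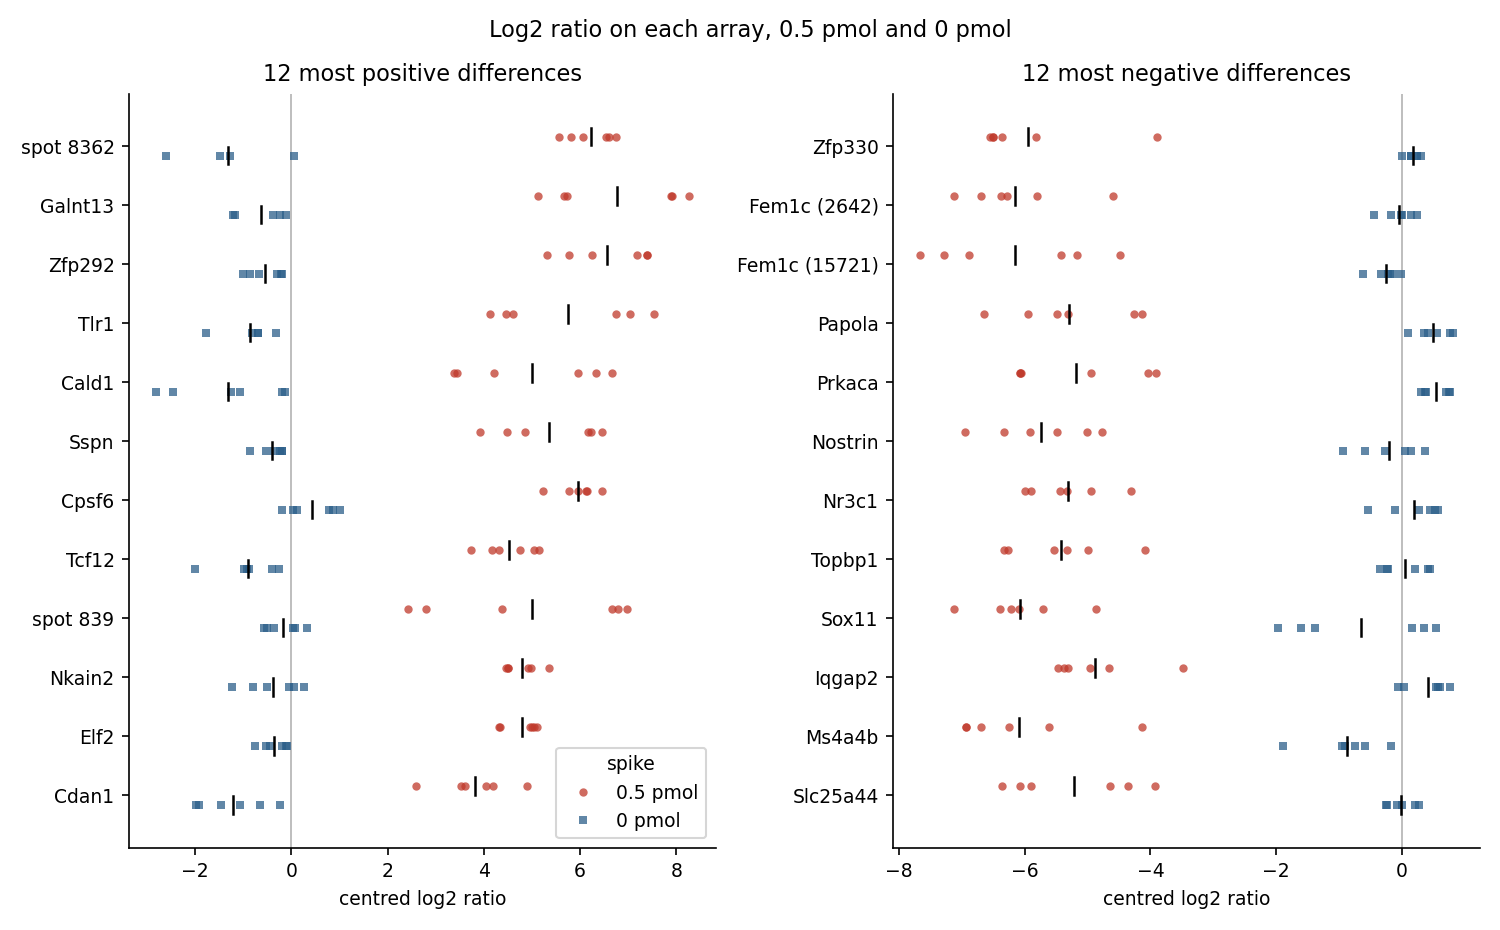
Centred log2 ratio (horizontal axes) on each 0.5 pmol array (red circles) and each 0 pmol array (blue squares) for the 12 most positive and the 12 most negative differences, with black ticks at the group means. For all 24 features the 0.5 pmol arrays lie apart from the 0 pmol arrays. The spiked values of Galnt13, Tlr1, Cald1, spot 839, Fem1c at spot 15721, Prkaca and Slc25a44 fall into a higher and a lower group.

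The 12 most positive differences, from 5.03 to 7.55, covered genes of unrelated roles. Among regulators of transcription, Zfp292, a zinc finger protein, had 5.31, 6.72 and 7.39 (lowest, median and highest) at 0.5 pmol and -1.0, -0.48 and -0.20 at 0 pmol, a difference of 7.09. Tcf12, a basic helix-loop-helix factor, had 3.72, 4.53 and 5.15 at 0.5 pmol and -2.01, -0.91 and -0.26 at 0 pmol, a difference of 5.44. Elf2, a factor of the ETS family, had 4.32, 4.98 and 5.11 at 0.5 pmol and -0.76, -0.32 and -0.09 at 0 pmol, a difference of 5.15. These 3 differed in how the spiked arrays split: Zfp292 averaged 7.32 on replicates 1 to 3 and 5.78 on replicates 4 to 6, Tcf12 4.07 and 4.98, and Elf2 4.82 and 4.77. Cpsf6, a subunit of the complex that cleaves pre-mRNA before polyadenylation, had 5.24, 6.04 and 6.46 at 0.5 pmol and -0.20, 0.44 and 1.02 at 0 pmol, a difference of 5.51. Cdan1, which binds a histone chaperone, had 2.59, 3.83 and 4.89 at 0.5 pmol and -1.99, -1.27 and -0.24 at 0 pmol, a difference of 5.03.

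Among the 10 positive features with a symbol, Galnt13 and 3 genes of the membrane and cytoskeleton split most between the replicate groups of 0.5 pmol. Tlr1, a receptor for bacterial lipopeptides, averaged 7.10 on replicates 1 to 3 and 4.40 on replicates 4 to 6, and -0.86 at 0 pmol. Cald1, the actin-binding caldesmon, averaged 6.32 on replicates 1 to 3 and 3.67 on replicates 4 to 6, and -1.33 at 0 pmol. Sspn, the sarcospan of the dystrophin complex, averaged 6.28 and 4.41 on these replicate groups, and -0.40 at 0 pmol. Their differences were 6.61 for Tlr1, 6.32 for Cald1 and 5.74 for Sspn. Nkain2, a partner of the sodium pump, did not show the split, with 4.93 and 4.64 on the replicate groups at 0.5 pmol, -0.39 at 0 pmol and a difference of 5.17. Spots 8362 and 839 have no symbol, and their differences were 7.55 and 5.18. All 12 positive features had adjusted p of 4.39e-07 or lower.

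The 12 most negative differences, from -6.13 to -5.20, included Zfp330 and both probes of Fem1c. In RNA processing and signalling, Papola, the canonical poly(A) polymerase, had -6.64, -5.40 and -4.14 (lowest, median and highest) at 0.5 pmol and 0.11, 0.49 and 0.82 at 0 pmol, a difference of -5.81. Prkaca, a catalytic subunit of protein kinase A, had -6.08, -5.51 and -3.90 at 0.5 pmol and 0.31, 0.55 and 0.78 at 0 pmol, a difference of -5.74. Nr3c1, the glucocorticoid receptor, had -5.99, -5.38 and -4.32 at 0.5 pmol and -0.54, 0.36 and 0.58 at 0 pmol, a difference of -5.52. The 2 amounts did not overlap at any of the 3. On replicates 1 to 3 and 4 to 6 of 0.5 pmol, Papola averaged -6.03 and -4.57, Prkaca -6.08 and -4.30, and Nr3c1 -5.23 and -5.40. Sox11, a transcription factor with an HMG box, averaged -6.07 ± 0.75 at 0.5 pmol and -0.65 ± 1.12 at 0 pmol (SD, n = 6 each), a difference of -5.42. Its 0 pmol arrays split as well, with a mean of 0.36 on replicates 1 to 3 and -1.65 on replicates 4 to 6. Topbp1, a scaffold of replication initiation and DNA damage signalling, differed by -5.47.

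Among membrane-linked negative genes, Nostrin, which binds endothelial nitric oxide synthase, differed by -5.55, and Iqgap2, a scaffold protein, by -5.29. Ms4a4b, a membrane protein of T cells, differed by -5.22. Slc25a44, a mitochondrial carrier, closed the list with -5.20: it had -6.36, -5.28 and -3.93 (lowest, median and highest) at 0.5 pmol and -0.25, -0.03 and 0.27 at 0 pmol. At 0.5 pmol it averaged -6.11 on replicates 1 to 3 and -4.31 on replicates 4 to 6. On the 3 arrays at 2 pmol its values were -6.59, 0.08 and -7.04, so it was not among the spike candidates described next. All 24 features kept their sign and their call when any 1 array of either amount was left out, when the arrays were not centred and within replicates 4 to 6. Within replicates 1 to 3 the same held for the 23 that could be fitted. The 24 were chosen from these same arrays for large called differences of 1 sign, so these counts are no independent support. With the array sets as a covariate all 24 kept their sign, and 10 were called with 8 sets and 12 with 6 sets.

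As the spiked genes are unknown here, 200 candidates stood in for them: the 100 highest and the 100 lowest means over the 3 arrays of 2 pmol, taken from features whose mean there was off 0 and whose measured values had one sign. The ratios at 0.5 pmol took no part in those means and signs, but the 2 pmol arrays lay in the same array set as replicates 1 to 3 of 0.5 pmol. The cut-offs at 2 pmol were 3.99 and -2.44. Of the positive candidates, 97 of 100 were called positive, where 14.1% of all features were. Of the negative candidates, 97 of 100 were called negative, where 11.0% of all features were. No candidate was called with the opposite sign. The median difference was 3.37 for the positive candidates (range 1.10 to 7.55) and -3.39 for the negative ones (range -6.13 to -0.57), beside 0.01 over all features. At least 2 log2 units were reached by 92 of the positive and 86 of the negative candidates, where 153 and 176 of all 7920 features did. Every 0.5 pmol array had the expected sign for 91 positive and 95 negative candidates. The arrays of the 2 amounts did not overlap for 89 positive and 85 negative candidates, where they did not overlap at 14.6% of all features. With the 8 array sets as a covariate, 43 of the 200 were called with their sign (2.04% of all features were called), and the median differences were 1.98 and -2.75.

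**Figure D2:**
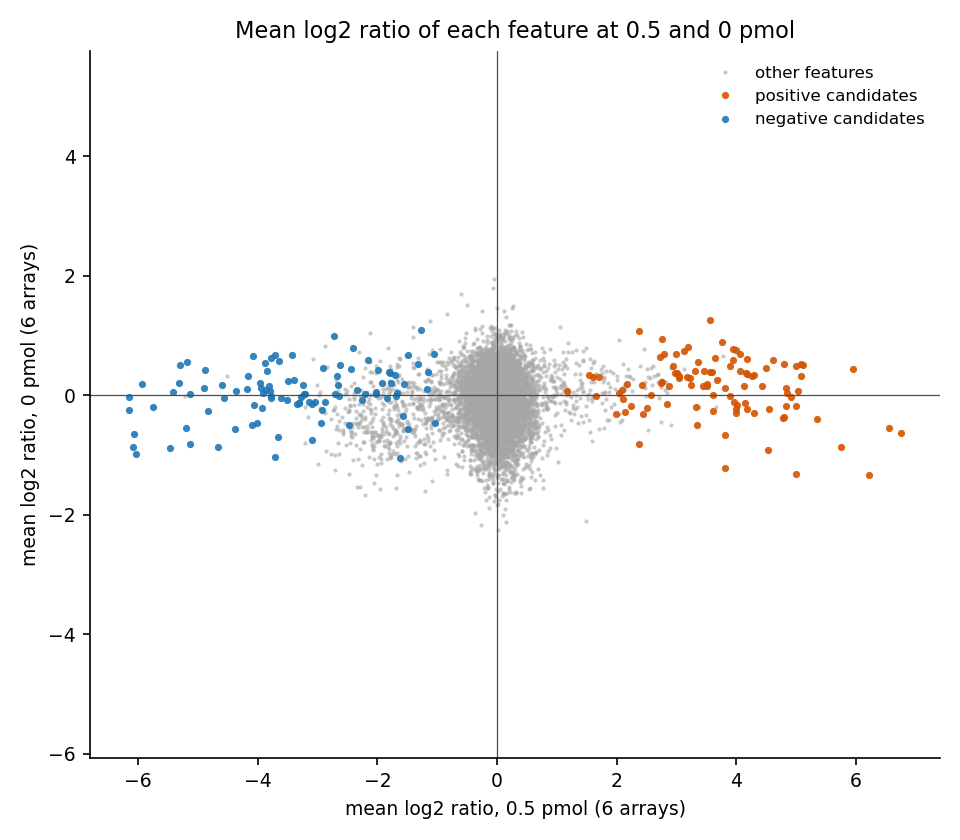
Mean centred log2 ratio of each feature over the 6 arrays at 0.5 pmol (horizontal axis) and over the 6 arrays at 0 pmol (vertical axis), with positive candidates in orange, negative candidates in blue and other features in grey. The candidates spread along the 0.5 pmol axis, with median means of 3.66 and -3.38, while grey features spread along both axes.

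Among the candidates that missed the threshold, the 0.5 pmol arrays disagreed between or within the replicate groups. Ino80, a nucleosome-remodelling ATPase, averaged 3.60 on replicates 1 to 3 and -0.28 on replicates 4 to 6 at 0.5 pmol, against -0.01 ± 0.18 at 0 pmol (SD, n = 6), and its difference was 1.67 (adjusted p = 0.0624). Ddx50, a nucleolar RNA helicase, averaged 2.48 on replicates 1 to 3 and -0.15 on replicates 4 to 6, against 0.07 ± 0.35 at 0 pmol (SD, n = 6), a difference of 1.10 (adjusted p = 0.0692). Maml3, a coactivator of Notch signalling, had 4.56 and 4.41 on replicates 1 and 2 but -1.66 on replicate 3, and its difference was 1.41 (adjusted p = 0.0868). Without replicate 3 its difference was 2.08 and was called (adjusted p = 0.00611). Rasa1, a GTPase-activating protein of Ras, averaged -2.68 on replicates 1 to 3 and -0.29 on replicates 4 to 6, with a difference of -0.92 (adjusted p = 0.156). Zfp655, a zinc finger protein, and spot 15137 each had a difference of -0.57 (adjusted p = 0.266 and 0.574). Zfp655 averaged -1.83 on replicates 1 to 3 and -0.24 on replicates 4 to 6 at 0.5 pmol. Spot 15137 went the other way, with -0.82 and -2.82, and had no value on replicate 6. Without 0.5 pmol replicate 4, 5 or 6, Ino80 was called at 2.10, 2.01 and 2.06 and Ddx50 at 1.34, 1.36 and 1.39. For Ino80, Ddx50 and Rasa1, which were called in replicates 1 to 3 alone, the signal stood on replicates 1 to 3, the arrays that share a set with those at 2 pmol.

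The candidate separation of an array, the median of its positive candidates minus that of its negative candidates, divided by 2, was 3.80, 4.07, 3.70, 3.51, 3.28 and 3.37 on the 6 arrays at 0.5 pmol. On the 6 arrays at 0 pmol it was 0.06, 0.05, 0.08, 0.03, 0.02 and -0.02. The means were 3.62 ± 0.30 at 0.5 pmol and 0.04 ± 0.03 at 0 pmol (SD, n = 6 each), and the lowest spiked array lay above the highest unspiked one. Replicates 1 to 3 of 0.5 pmol averaged 3.86 and replicates 4 to 6 averaged 3.39. Both sides of the set contributed: the positive candidates had a median of 3.79 ± 0.53 and the negative ones of -3.45 ± 0.37 at 0.5 pmol (SD, n = 6). The positive candidates were farther from 0 on replicates 1 to 3 than on replicates 4 to 6 at 81 of 100 features, and the negative ones at 67 of 100. The spread over arrays was also larger for candidates: their median SD was 0.79 at 0.5 pmol and 0.31 at 0 pmol, against 0.33 at 0.5 pmol and 0.37 at 0 pmol for the other features.

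**Figure D3:**
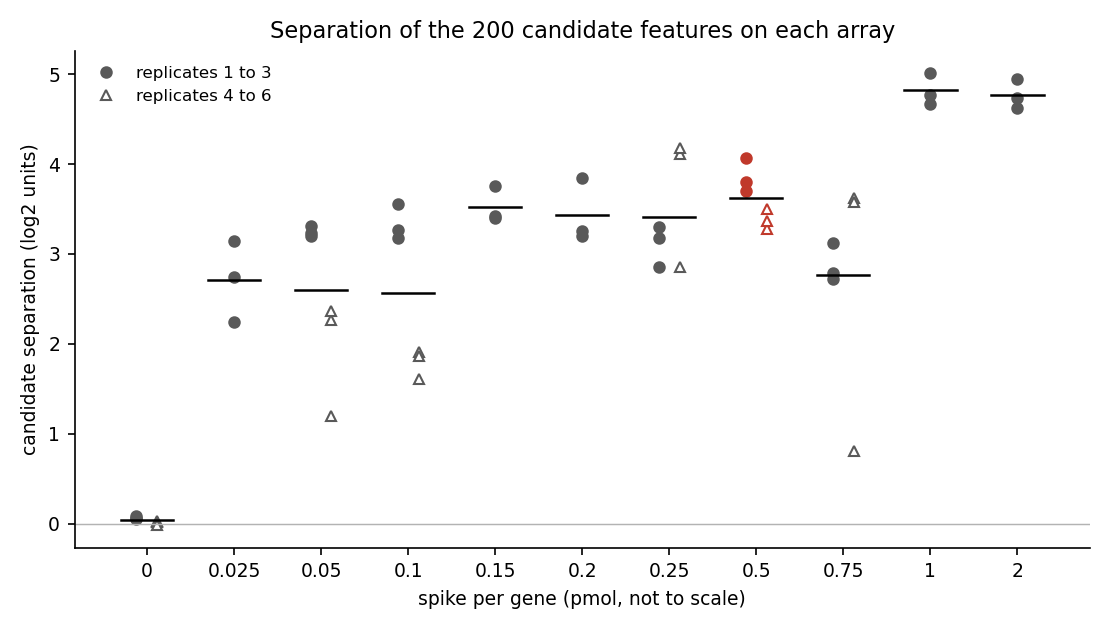
Candidate separation in log2 units (vertical axis) on every array, by spiked amount in pmol (horizontal axis, categories not to scale), with replicates 1 to 3 as filled circles, replicates 4 to 6 as open triangles, 0.5 pmol in red and the group means as bars. The 0.5 pmol arrays lie between 3.28 and 4.07 and the 0 pmol arrays between -0.02 and 0.08.

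Next to 0.25 pmol, the amount below, no feature of 7920 was called at 0.5 pmol (0%), while 558 had an unadjusted p under 0.05. The separation was 3.62 ± 0.30 at 0.5 pmol and 3.41 ± 0.59 at 0.25 pmol (SD, n = 6 each). The positive candidates had a median difference, 0.5 minus 0.25 pmol, of -0.14, and 39 of 100 were more positive at 0.5 pmol. The negative candidates had a median difference of -0.57, and 80 of 100 were more negative at 0.5 pmol. The median standard error of the difference of a single candidate was 0.51 for the positive and 0.49 for the negative ones. Replicates 1 to 3 of both amounts lay in 1 array set, and their comparison also gave 0 calls, with 226 unadjusted. That fit still took its spread from the arrays of the other amounts too, which lay largely in other sets. A p that misses the threshold does not show that the amounts gave equal ratios. Scaling the arrays to one spread gave 10 calls.

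Next to 0.75 pmol, the amount above, 247 features were called (3.12%), 81 positive (1.02%) and 166 negative (2.10%). The separation was 3.62 ± 0.30 at 0.5 pmol and 2.77 ± 1.04 at 0.75 pmol (SD, n = 6 each), a gap of 0.85. Much of that gap came from 1 array, 0.75 pmol replicate 4, which had a separation of 0.81 and whose paired spots correlated at r = 0.20. Without it the 0.75 pmol arrays averaged 3.16 ± 0.43 (SD, n = 5), from 2.72 to 3.63, and the gap was 0.46. Of the positive candidates, 8 were called farther from 0 at 0.5 pmol and 3 nearer to it, with a median difference of 0.48. Of the negative candidates, 10 were called farther from 0 at 0.5 pmol and none of the 100 nearer, with a median of -0.69. Cdan1 differed by 2.79, with 3.81 ± 0.77 at 0.5 pmol and 1.02 ± 1.99 at 0.75 pmol (SD, n = 6 each). Usf1, a factor that binds E-box sites, differed by 2.73, with 3.66 ± 0.91 at 0.5 pmol and 0.92 ± 0.57 at 0.75 pmol, and Elf2 by 2.52. At the other end, Maml3 differed by -3.41, with 1.71 ± 2.41 at 0.5 pmol and 5.11 ± 1.22 at 0.75 pmol. Ttc23, a tetratricopeptide repeat protein, differed by -3.02 and Prg4, the joint lubricant lubricin, by -2.89. The count ranged from 54 to 389 when 1 array was left out: it was 54 without 0.5 pmol replicate 6, 84 without replicate 4, 93 without replicate 5 and 389 without replicate 1. Without 0.75 pmol replicate 1, 2 or 3 it was 107, 111 or 104, and without replicate 4, 5 or 6 it was 179, 243 or 251.

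Of the 1987 called features, 1793 were not candidates, 1018 positive and 775 negative. Their median absolute difference was 1.03, and 151 of them reached at least 2 log2 units. For 96 of these 151 the mean at 2 pmol lay more than 1 log2 unit from 0 with the same sign. Prdx2, a peroxide-reducing enzyme, had 3.04, 3.65 and 4.47 (lowest, median and highest) at 0.5 pmol and -0.02, 0.22 and 0.54 at 0 pmol, a difference of 3.44 (adjusted p = 1.84e-11). Usf1 had 2.60, 3.66 and 4.95 at 0.5 pmol and -0.42, -0.18 and 0.01 at 0 pmol, a difference of 3.86. Fkbp9, a prolyl isomerase of the endoplasmic reticulum, had the largest positive difference outside the candidates, 3.87. It averaged 4.19 ± 0.64 at 0.5 pmol and 0.32 ± 0.19 at 0 pmol (SD, n = 6 each). Its values at 2 pmol were 5.44, -0.38 and 5.49, so the odd array, replicate 2, was the one that also kept Slc25a44 out of the candidates.

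Which group of arrays lay away from 0 differed between the candidates and the rest. All 194 called candidates lay farther from 0 at 0.5 than at 0 pmol. Their mean at 0.5 pmol was off 0 by the same test for all 194, and their mean at 0 pmol for 12. Of the 1793 other called features, 709 lay farther from 0 at 0.5 pmol and 1084 farther from 0 at 0 pmol. The mean at 0.5 pmol was off 0 for 685 of them, the mean at 0 pmol for 1048, both for 109 and neither for 169. Over all features the mean was off 0 for 1417 at 0.5 pmol (17.9%), with 599 positive (7.56%) and 818 negative (10.3%), and for 1993 at 0 pmol (25.2%), although no spike was added to the arrays at 0 pmol. More of the calls outside the candidates thus had their larger mean ratio on the unspiked than on the spiked arrays. Cd3e, a chain of the T cell receptor complex, was an example: it averaged 0.32 ± 0.26 at 0.5 pmol (SD, n = 6) and -1.63 ± 0.65 at 0 pmol (SD, n = 5), a difference of 1.96 (adjusted p = 7.41e-07).

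Replicates 1 to 3 and replicates 4 to 6 of these amounts, which share no array, were also compared separately. Both fits kept all arrays of the other amounts. The differences thus came from separate arrays, but the calls drew on a partly common estimate of the spread. Replicates 1 to 3 gave 607 calls of 7880 features (7.70%) and replicates 4 to 6 gave 1717 of 7886 (21.8%). With their expected sign, 173 candidates were called in replicates 1 to 3 and 175 in replicates 4 to 6. Of the 194 candidates called over all 12 arrays, 153 were called in both replicate groups. Of the 1793 other features called over all 12 arrays, 188 were. Among features measured in both replicate groups, 430 others were called in replicates 1 to 3, and of these 381 had the same sign in replicates 4 to 6 (88.6%) and 188 were called there (43.7%). In the same way, 1519 others were called in replicates 4 to 6, and of these 1227 had the same sign in replicates 1 to 3 (80.8%) and 188 were called there (12.4%). Across features, the 2 sets of differences correlated at r = 0.95 over 198 candidates and 0.49 over 7652 others, given as a description, since the features of an array share its hybridisation.

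**Figure D4:**
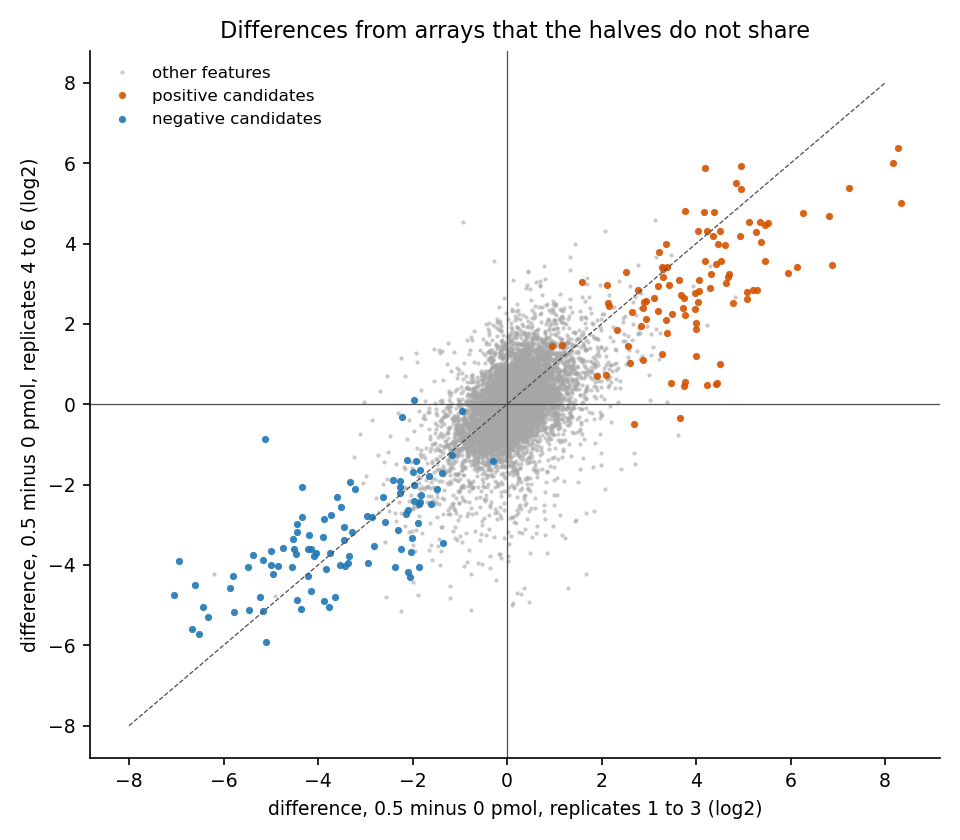
Difference of 0.5 minus 0 pmol in log2 units from replicates 1 to 3 (horizontal axis) and from replicates 4 to 6 (vertical axis) for each feature measured in both, with positive candidates in orange, negative candidates in blue, other features in grey and the line of equal values dashed. The candidates run along the line, and some grey features near 0 in replicates 1 to 3 are strongly negative in replicates 4 to 6.

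Some named features outside the candidates differed between the replicate groups of 0.5 pmol. Gapdh at spot 1254, a probe apart from the printed controls, averaged -0.72 on replicates 1 to 3 and -4.84 on replicates 4 to 6 at 0.5 pmol, and -0.39 ± 0.86 at 0 pmol (SD, n = 6). Prg4 averaged -1.52 on replicates 1 to 3 and -4.99 on replicates 4 to 6 at 0.5 pmol, and -0.04 ± 0.61 at 0 pmol. Krtap9-1, a keratin-associated protein of hair, averaged -1.97 and -4.19 on these groups, and 0.60 at 0 pmol, a difference of -3.68. Gm5124, a predicted gene, averaged -1.28 and -4.46, and 0.83 at 0 pmol, a difference of -3.70. At all 4 the mean of replicates 4 to 6 was the more negative one, although replicate 1 of Krtap9-1, at -3.88, lay below replicates 4 and 5, at -3.50 and -3.69. Usf1 went the other way, with 2.89 on replicates 1 to 3 and 4.42 on replicates 4 to 6. Gapdh at spot 1254, Prg4 and Krtap9-1 were all printed in column 22, the last column of a block. Of the 192 features of that column, none of them a candidate, 113 were called negative (58.9%) and 0 positive, where 11.0% of all features were called negative. Outside that column, 662 of 7528 features that were not candidates were called negative (8.79%). The median difference in column 22 was -1.43, with -1.19 in replicates 1 to 3 and -1.74 in replicates 4 to 6, against 0.03 elsewhere. That 0.03 pooled all other columns, which were not alike. Column 1 held 47 features that were not candidates, with 9 called negative (19.15%), 0 positive and a median difference of -1.24. Its median was -2.50 from replicates 4 to 6 alone, but -0.19 from replicates 1 to 3. Columns 12 and 14 leaned positive, with medians of 0.35 and 0.33 and with 26.9% and 27.5% called positive. The part of the print position in these differences was not tested. The control probes of Gapdh had positive medians on replicates 4 to 6 of 0.5 pmol, up to 3.21, so the gene's probes did not move together.

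Genes with 2 features were also compared. Of 632 such genes, 41 had both features called, 22 with the same and 19 with opposite signs, while 235 had 1 called and 356 had neither. Without the genes that hold a candidate, 14 pairs had the same and 14 opposite signs. At 30 genes, 1 of the features was a candidate. The other was called with the same sign at 7, with the opposite sign at 4 and not called at 19. Its median absolute difference was 0.46, beside 0.43 over all features. Of all features 25.1% were called, 14.1% positive and 11.0% negative. The counts of pairs were not tested against these shares. At the 2 genes with both features among the candidates, Fem1c was negative at both, while Hk2, the hexokinase that starts glycolysis in muscle and tumours, was positive at one and negative at the other. The Hk2 feature at spot 9437 had 3.43, 4.25 and 4.63 (lowest, median and highest) at 0.5 pmol and 0.40, 0.57 and 0.93 at 0 pmol. Its feature at spot 15849 had -3.04, -2.71 and -2.31 at 0.5 pmol and -0.33, 0.03 and 0.37 at 0 pmol. Their differences were 3.57 and -2.72, and neither feature overlapped between the amounts. Among genes with both features called, an example chosen after its values were seen was Eif4a2, an RNA helicase of translation initiation, which differed by -5.02 at its feature at spot 11052 and by -1.09 at the one at spot 136.

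Calls were found in every one of the 48 print blocks, at 14.5% (block 16) to 41.8% (block 38) of the 165 features, with a median of 24.5%. Block 38 held 13 candidates and block 27 the most, 17, while some blocks held 0. The median difference of a block ran from -0.26 to 0.27. Features directly beside a positive candidate on the print, and not candidates themselves, were called positive at 61 of 324 (18.8%), and features beside none at 933 of 7094 (13.2%). Features directly beside a negative candidate were called negative at 53 of 316 (16.8%), and features beside none at 689 of 7094 (9.71%). Their median differences were 0.13 beside positive candidates, -0.19 beside negative ones and 0.02 elsewhere. These shares are descriptions, since neighbouring spots share a print block. Features with a symbol were called at 25.2% and those without at 24.8%.

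**Figure D5:**
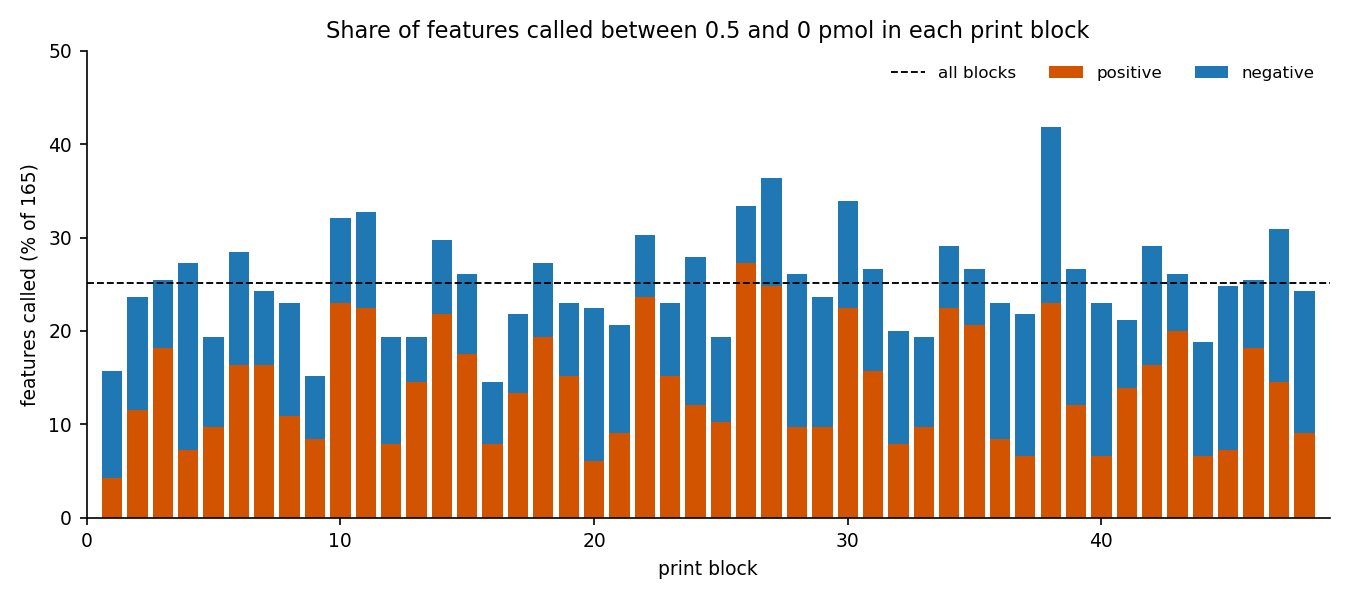
Share of the 165 features of each print block that were called between 0.5 and 0 pmol (vertical axis, percent), stacked as positive (orange) and negative (blue), by block number (horizontal axis), with the share over all blocks dashed at 25.1%. Block 38 is the highest at 41.8%.

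Genes were also grouped by function, and each list was read beside the 25.1% of all features called and their median difference of 0.01. As both channels held the same hybridoma RNA, a ratio says nothing of the level of a gene in the cells, fewer cells and less RNA per cell cannot be told apart, and the cell type could not be checked by its markers. Of 16 features of mucin O-glycosylation, the pathway of Galnt13, 4 were called positive and 1 negative (31.2%, median 0.17). Galnt1, a relative of Galnt13 with the same reaction, averaged 2.09 ± 0.67 at 0.5 pmol and -0.42 ± 0.48 at 0 pmol (SD, n = 6 each), a difference of 2.51. With the 8 array sets as a covariate that difference was -2.06. Galnt16, also printed in column 22, was called in the other direction, -1.81, with -0.76 on replicates 1 to 3 and -3.66 on replicates 4 to 6 at 0.5 pmol, and turned to 0.22 without centring. Without 0.5 pmol replicate 6 it was -1.30 and was not called. Nor was Galnt16 called when only the 12 arrays were fitted (adjusted p = 0.0571). St3gal2, which caps such chains with sialic acid, differed by 0.76, and was not called without 0.5 pmol replicate 2 or 6 (0.67 and 0.74) or without 0 pmol replicate 3, 4 or 5 (0.72, 0.69 and 0.73).

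Of 33 features of ubiquitin ligase substrate receptors, the class of Fem1c, 6 were called positive and 3 negative (27.3%, median 0.10). Besides Fem1c, Dcaf8, a receptor of a cullin 4 ligase, differed by 1.69, with 1.59 ± 0.37 at 0.5 pmol and -0.10 ± 0.14 at 0 pmol (SD, n = 6 each). Fbxw11, an F-box receptor that recognises phosphorylated targets, differed by 1.53 at spot 13387. It was also called at spot 13350 (0.83) but not at spot 9920 (-0.37).

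Of 7 immunoglobulin and plasma cell features, 1 was called positive and 2 negative (42.9%, median -0.19). Cd22, an inhibitory receptor of B cells and a candidate, had -5.04, -4.09 and -2.71 (lowest, median and highest) at 0.5 pmol and -0.22, 0.23 and 0.54 at 0 pmol, a difference of -4.16. Ebf1, a factor of early B cells, differed by -0.92 at spot 4017 (1.11 without centring). Its feature at spot 3847 differed by 0.06 and was not called (adjusted p = 0.918). Iglv1, an immunoglobulin light chain segment, differed by 0.94 (-0.0082 with the 8 array sets as a covariate). The Iglv1 difference was 0.74, not called, without 0.5 pmol replicate 4. Of 15 features of folding and secretion in the endoplasmic reticulum, 1 was called positive and 1 negative (13.3%, median -0.32). Ern1, a sensor of unfolded protein, was called at spot 10475 (0.81) but not at spot 5152 (-0.43, adjusted p = 0.232). Hyou1, a chaperone, was called negative at -0.85. Hyou1 averaged -0.23 at 0.5 pmol and 0.62 at 0 pmol, so its larger mean ratio was on the unspiked arrays. Its difference was 1.18 without centring and 0.022 with the 8 array sets as a covariate. That of Ern1 at spot 10475 was -0.53 with the sets.

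Of 17 cell cycle features, 3 were called positive and 4 negative (41.2%), with a median difference near 0. E2f4, a repressor of cell cycle genes and a candidate, ran from 0.94 on replicate 3 to 7.13 on replicate 1 at 0.5 pmol and from 0.53 to 0.83 at 0 pmol, a difference of 3.37. Cdk6, a kinase of the first gap phase, was called with opposite signs, 1.62 at spot 10300 and -1.01 at spot 1851. Its feature at spot 9301 differed by -0.25 and was not called (adjusted p = 0.473). The difference at spot 1851 was 1.02 without centring and 0.12 with the 8 array sets as a covariate, and it was not called without 0.5 pmol replicate 2, 4 or 6 (-0.99, -0.92 and -1.0) or without 0 pmol replicate 4, 5 or 6 (-0.94, -0.91 and -1.0). Plk1, a mitotic kinase, differed by -1.14 (0.89 without centring), with -0.24 ± 0.45 at 0.5 pmol and 0.90 ± 0.28 at 0 pmol (SD, n = 6 each). Of 14 glycolysis features, 1 was called positive and 4 negative (35.7%, median -0.43). Among them were both features of Hk2, and Pfkm, a phosphofructokinase, at -1.21 (0.82 without centring). Gapdh was called at spot 1254, at -2.39. It was not called at spots 1057 and 1298, with -0.24 and -0.55 (adjusted p = 0.787 and 0.555). Gapdh at spot 1254 was not called without 0.5 pmol replicate 6, where its difference was -1.58 (adjusted p = 0.0524). Nor was it called when only the 12 arrays were fitted (adjusted p = 0.0824). Of 7 features of oxidative phosphorylation 1 was called, Ndufa2, a subunit of complex I and a candidate, at -3.37 (14.3%, median -0.51). Of 6 ribosomal protein features 1 was called, Rps13, a protein of the small subunit, at -0.72 (16.7%, median -0.12), and it turned to 1.31 without centring and was -0.56, not called, without 0 pmol replicate 5.

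Markers of other cells were read in the same way. Of 11 T cell, NK cell and myeloid features, 2 were called positive and 2 negative (36.4%, median 0.33). Ms4a4b and Tcra, a chain of the T cell receptor, were candidates. Tcra averaged -5.09 on replicates 1 to 3 and -0.25 on replicates 4 to 6 at 0.5 pmol, against 0.32 ± 0.38 at 0 pmol (SD, n = 6), a difference of -2.99 that rested on replicates 1 to 3. Icos, a costimulatory receptor, differed by 1.16 at spot 1938 (-0.45 with the 8 array sets as a covariate, and 0.93, not called, without 0 pmol replicate 3). Its feature at spot 1278 differed by 0.33 and was not called (adjusted p = 0.404). Of 19 features that mark liver, muscle, nerve, epithelium and stroma, 4 were called positive and 1 negative (26.3%, median 0.16). Krt18, a keratin of simple epithelia and a candidate, had 3.01, 3.19 and 3.72 (lowest, median and highest) at 0.5 pmol and -0.13, 0.27 and 0.37 at 0 pmol, a difference of 3.08. Col1a2, a collagen chain, differed by 1.16 at spot 15050, and Syt1, a calcium sensor of synaptic vesicles, by 1.12. Both lay nearer to 0 at 0.5 than at 0 pmol. Col1a2 at spot 15050 was 0.79, not called, without 0 pmol replicate 4. Its feature at spot 11620 differed by -0.00042 and was not called. Cdh5, a cadherin of endothelium, differed by -1.33 (0.70 without centring). In 9 of the 10 lists no member was called with the 8 array sets as a covariate, and in the O-glycosylation list 1 was, Galnt13.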

How the data were processed

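The authors deposited 1 log2 ratio of the 2 channels per spot and array. The log base was read from the values. Background subtraction, filtering, normalisation and the channel in the numerator are not given in the sources used here, and the array medians show that the deposited values were not centred. Scanner intensities were not analysed here, so depth is unknown and the number of arrays limits the precision.

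Values of 16.61 or more (1074, log2 of an upper limit) were set missing. The 16896 spots lie in 48 blocks in rows of 22, and pairs of spots 22 apart were averaged: 5458 of 8448 pairs had the same accession, 0 different ones. The 11 positions that held no named gene or 1 gene in every block were left out as controls (528 probes), which leaves 7920 features, 5347 with a symbol. The pairing and control rules were set after the layout was seen. Gene symbols come from the platform annotation, brought up to date through RefSeq (GRCm38.p6) for 10766 of the spots. The number of the first spot stands for a feature with no symbol.

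Arrays were centred on the median of their non-control spots. limma 3.58.1 (R 4.3.3) fitted all 51 arrays with 1 mean per amount, with empirical Bayes moderation, two-sided tests, at least 2 measured arrays per group and Benjamini-Hochberg adjusted p under 0.05 over all features. The script was tested on simulated data. Plots used Python 3.11.15 and matplotlib 3.10.9. Named features are the 12 highest and 12 lowest called differences measured on at least 4 arrays of each amount, with 1 sign on every measured 0.5 pmol array and at most 2 without a symbol each way. They also include all probes of Galnt13, Zfp330 and Fem1c, up to 4 called members of each of 10 gene lists, the 3 highest and 3 lowest called features that are not candidates, the candidates not called, and the 3 highest and 3 lowest called against 0.25 and 0.75 pmol. The members, candidates, lists and rules were chosen with earlier results of these data known. Alternatives changed centring, scaling, spots, samples, weights, moderation and replicates. The array sets (Ward clustering) and a few further settings were added after the data had been seen.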

Additional observations from a re-analysis of the deposited data

Results flagged for a closer look

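In 7 of 142 groups of 4 to 6 arrays, 1 array stood farther from its neighbours than Dixon's 95% limit allows, and chance gives about 1 in 20. Zfp330 had -3.90 on 0.5 pmol replicate 4, where the other 5 arrays lay between -6.55 and -5.82. Ttc23 had -1.79 on 0.5 pmol replicate 2, where the others lay between -0.19 and 0.38. Cd3e had 0.83 on 0.5 pmol replicate 3, where the others lay between 0.15 and 0.32. The correlation of paired spots was 0.815 on that same array, where the other 5 arrays at 0.5 pmol lay between 0.943 and 0.976. At 0 pmol, the second Galnt13 probe, spot 11444, had 1.06 on replicate 6, where the others lay between -0.63 and -0.16. Ino80 had -0.35 on 0 pmol replicate 3, where the others lay between -0.015 and 0.17, and Zfp655 had -1.65 on replicate 2, where the others lay between -0.59 and -0.021.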

How the results depend on the processing

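The count of 1987 features called between 0.5 and 0 pmol became 7231 without centring, 3300 with array weights on the 12 arrays, 607 with replicates 1 to 3 only, and 161 or 154 with 8 or 6 array sets as a covariate. The cause of these shifts was not tested, except that uncentred arrays carry the difference of their medians. Leaving out 1 array gave 1650 to 2066, and the other alternatives stayed within 1.5 times. The 194 candidates called became 43 with 8 and 49 with 6 array sets, and 191 to 195 when 1 array was left out. The 1417 features off 0 at 0.5 pmol became 1314 with those 6 arrays alone. Against 0.25 pmol the count of 0 became 10 after scaling, 5321 without centring and 0 to 5 when 1 array was left out (5 without 0.5 pmol replicate 1, 4 without replicate 2). Against 0.75 pmol the 247 became 884 after scaling, 7421 without centring and 54 to 389 when 1 array was left out.

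Over 65 named features and 1364 values under alternatives, 1226 kept direction and side of the threshold, 94 lost the call and 17 gained it. A further 16 turned sign with a call in at least one of the fits, and 11 values of 6 features turned sign with a call in neither. Without centring, Galnt16 was 0.22, Ebf1 at spot 4017 1.11, Hyou1 1.18, Plk1 0.89 and Cdk6 at spot 1851 1.02. In the same fit Pfkm was 0.82, Rps13 1.31, Cdh5 0.70, Zfp655 1.46 and Ttc23 1.93. With 8 array sets, Galnt1 was -2.06, Iglv1 -0.0082 and Hyou1 0.022. With those sets Ern1 at spot 10475 was -0.53, Cdk6 at spot 1851 0.12 and Icos at spot 1938 -0.45.

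The replicate numbers are shared by the groups, but no label ties them to a day or preparation. Same-numbered arrays of 0.5 and 0 pmol deviated together at r of -0.24, 0.22, 0.14, 0.05, 0.12 and 0.11, and 1 of 6, replicate 5, correlated best with its own number, so the numbers were not taken as pairs. With the replicate block, 2022 features were called (2045 with the 12 arrays alone), with 193 candidates (187), 0 against 0.25 pmol and 281 against 0.75 pmol.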

Other observations

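The printed control gene Pdia3, a disulfide isomerase of the endoplasmic reticulum, had medians over its 48 blocks of 0.01, -0.44, -0.27, -0.14, -0.26 and -0.95 on the 6 arrays at 0.5 pmol. On the 6 arrays at 0 pmol they were -0.42, -0.29, -0.20, 0.51, 0.71 and 0.69, so replicates 1 to 3 and replicates 4 to 6 of 0 pmol lay on opposite sides of 0.

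Values at the upper limit numbered 64 over the 6 arrays at 0.5 pmol and 452 over the 6 arrays at 0 pmol. At 0 pmol, replicates 4, 5 and 6 held 150, 151 and 138 of them.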
